A study of Mus musculus with 12 samples.

Results

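The basement membrane collagens examined here are the 8 genes of the mouse type IV collagens (*Col4a1*, *Col4a2*, *Col4a3*, *Col4a4*, *Col4a5*, and *Col4a6*) and of the multiplexins (*Col15a1* and *Col18a1*), taken by gene symbol from the 52636 genes of the deposited count matrix. All 8 were found and all 8 passed the filter on low counts, which left 22320 genes for testing. They were followed in smooth muscle cells (SMCs) sorted from the thoracic aorta of 12-week-old male mice. GFPiSMC mice carry a *Myh11* promoter-driven, tamoxifen-inducible Cre (Myh11-CreERT2) and the mT/mG reporter, so that recombined SMCs turn green, and have no floxed receptor alleles. Tgfbr1/2iSMCKO mice carry the same Cre and reporter together with Tgfbr1 fl/fl and Tgfbr2 fl/fl, and thereby lose both receptors for TGF-β in SMCs. Both lines were given tamoxifen for 5 days. The labels give 1 mg/d at 4 weeks or 2 mg/d at 11 weeks of age without tying either schedule to a library, while the methods and legends describe cells taken a week after the disruption, which is the later schedule for both genotypes. In these libraries the line and the deletion go together. DNA that surrounds the floxed alleles can therefore not be told apart here from the loss of the receptors. Within the floxed line, the paper reports by quantitative RT-PCR of thoracic aortas a rapid decline of *Col15a1* and *Col18a1* from untreated mice after tamoxifen. Viable GFP+ cells were sorted from the ascending aorta/aortic arch (ascending/arch) and from the descending thoracic aorta of 3 animals of each genotype, which gave 12 libraries in 4 groups of 3. Nothing in the labels names a sequencing batch.

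Type IV collagen is the network-forming collagen of basement membranes, the sheets of matrix that surround each SMC in the aortic media and underlie the endothelium. Its chains assemble inside the cell into trimers, the most widespread of which joins the products of *Col4a1* and *Col4a2*. The products of *Col4a3*, *Col4a4*, and *Col4a5* form the trimer of the glomerular filter, and those of *Col4a5* and *Col4a6* form a trimer found in the basement membranes of smooth muscle. Collagens XV and XVIII carry heparan or chondroitin sulphate chains, lie at the border between basement membrane and interstitial matrix, and release the fragments restin and endostatin from their C-terminal ends. TGF-β is a well-known inducer of matrix genes in SMCs.

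The 6 type IV genes are arranged as head-to-head pairs, in which the transcription starts of neighbours face away from each other. In the GENCODE M21 annotation of GRCm38, *Col4a1* (ENSMUSG00000031502.11, minus strand, chr8:11198423-11312826) and *Col4a2* (ENSMUSG00000031503.13, plus strand, chr8:11312805-11449287) overlap by 22 bases at their 5′ ends. *Col4a4* (minus strand, chr1:82448423-82586849) and *Col4a3* (plus strand, chr1:82586921-82722059) are separated by 71 bases, and *Col4a6* (minus strand, chrX:141165403-141474076) and *Col4a5* (plus strand, chrX:141475385-141689234) by 1308 bases. *Col15a1* (plus strand, chr4:47208161-47313167) and *Col18a1* (minus strand, chr10:77052178-77166548) stand alone.

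Promoter windows from RefSeq (GRCm38.p6), which run from 250 bases before to 50 bases after a transcription start, were at hand for 7 of the 8 genes, with 2 for *Col18a1*. The windows of *Col4a1* and *Col4a2*, which encode the widespread trimer, of *Col15a1*, the gene with the largest genotype difference, and of the upstream start of *Col18a1*, its paralogue, are shown 5′ to 3′ on the strand of the gene. Capitals mark GGGCGG, the GC box bound by Sp1, and CAGAC, the core of a SMAD-binding element, on either strand, so that the reverse complements CCGCCC and GTCTG are capitals too.
Col4a2 (chr8:11312555-11312854, plus strand): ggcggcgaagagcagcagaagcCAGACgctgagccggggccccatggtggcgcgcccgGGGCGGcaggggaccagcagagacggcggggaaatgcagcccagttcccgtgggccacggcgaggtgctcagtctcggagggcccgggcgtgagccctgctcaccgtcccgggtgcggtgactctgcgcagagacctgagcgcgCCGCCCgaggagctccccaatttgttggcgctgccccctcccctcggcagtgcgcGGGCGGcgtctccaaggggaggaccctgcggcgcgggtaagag
Col4a1 (chr8:11312777-11313076, minus strand): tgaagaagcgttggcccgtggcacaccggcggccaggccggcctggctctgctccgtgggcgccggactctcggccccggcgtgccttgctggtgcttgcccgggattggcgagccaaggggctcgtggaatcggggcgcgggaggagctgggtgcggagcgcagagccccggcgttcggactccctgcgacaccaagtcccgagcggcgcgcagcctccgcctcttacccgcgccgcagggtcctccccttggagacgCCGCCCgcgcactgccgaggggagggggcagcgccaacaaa
Col15a1 (chr4:47207762-47208061, plus strand): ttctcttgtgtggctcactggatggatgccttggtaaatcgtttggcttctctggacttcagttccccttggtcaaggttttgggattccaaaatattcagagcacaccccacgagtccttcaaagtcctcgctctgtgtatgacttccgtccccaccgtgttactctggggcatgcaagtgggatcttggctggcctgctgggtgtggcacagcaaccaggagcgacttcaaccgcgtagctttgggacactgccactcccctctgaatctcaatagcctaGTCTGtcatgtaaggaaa
Col18a1 (chr10:77166481-77166780, minus strand): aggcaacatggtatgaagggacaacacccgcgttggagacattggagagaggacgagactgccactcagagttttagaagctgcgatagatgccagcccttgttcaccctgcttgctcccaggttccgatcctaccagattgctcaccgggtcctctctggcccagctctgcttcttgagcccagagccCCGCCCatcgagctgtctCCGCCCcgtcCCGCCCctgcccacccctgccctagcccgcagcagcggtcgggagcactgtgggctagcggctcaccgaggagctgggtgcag

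The *Col4a1* and *Col4a2* windows share 78 bases, and a GC box within that stretch is read on both strands. The *Col4a2* window holds 3 GC boxes and 1 SMAD core, that of *Col4a1* 1 GC box and no SMAD core, that of *Col15a1* 1 SMAD core and no GC box, and that of *Col18a1* 3 GC boxes and no SMAD core. Of the others, the *Col4a5* and *Col4a6* windows hold 1 GC box each, and the *Col4a4* window and the downstream *Col18a1* window hold 1 SMAD core each. These letters are common, since GGGCGG occurs in 35.7% and CAGAC in 49.6% of the 32851 promoter windows of the same length. G and C make up 74.0% of the *Col4a1* and 73.7% of the *Col4a2* window, 63.3% of the *Col18a1* and 52.3% of the *Col15a1* window, beside a median of 52.7% over all windows. The AP-1 site TGACTCA, the TATA box TATAAA, and the CArG box of serum response factor have no match in any of the 8 windows, where 5.20%, 13.6%, and 1.63% of all windows hold one. GGAATG, bound by TEAD factors, occurs once in the *Col4a6* window and 2 times in the downstream *Col18a1* window, and in 14.7% of all windows. The *Col15a1* window ends at 47208061, before the GENCODE start of the gene at 47208161, so the RefSeq and GENCODE annotations differ on its start.

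Total counts ranged from 20467027 to 31392396 per library, from 9208 to 20000 sorted cells. The summed level of 10 smooth muscle markers, in counts scaled to an equal library total (CPM), ranged from 46428 to 54813 in GFPiSMC and from 39658 to 47666 in Tgfbr1/2iSMCKO libraries. The largest part was *Acta2*, at 28062 to 31930 and 20543 to 30380 CPM (log2 fold change −0.23, edgeR adjusted p = 0.264). None of the 10 passed the adjusted p, and their median log2 fold change was 0.01. Endothelial cells also make several of these collagens. The summed level of 10 endothelial markers was 101 to 141 CPM in GFPiSMC and 98.4 to 177 CPM in Tgfbr1/2iSMCKO libraries. Of these, *Pecam1* held 61.6 to 95.7 and 44.4 to 87.5 CPM (log2 fold change −0.13, edgeR adjusted p = 0.800) and *Esam* 16.9 to 38.4 and 31.2 to 73.6 CPM (0.84, adjusted p = 0.0398). *Erg* was lower (−1.13, adjusted p = 0.00652), and the defining marker *Cdh5*, at 0 to 0.513 and 0.497 to 2.71 CPM, was higher (2.97, adjusted p = 0.0250). The other 6 markers did not pass the adjusted p. The part of these markers in the results was not tested. The corresponding ranges were 1022 to 1748 and 566 to 1740 CPM for 10 fibroblast markers, 7.85 to 19.8 and 12.8 to 28.7 CPM for 10 macrophage and leukocyte markers, 4.10 to 6.69 and 2.06 to 5.71 CPM for 7 mesothelial markers, 2.70 to 6.98 and 3.68 to 4.91 CPM for 6 Schwann cell and neural markers, and 66.1 to 136 and 62.8 to 87.5 CPM for 5 adipocyte markers. Of 9 fibroblast markers tested, *Mfap5* (−1.24, edgeR adjusted p = 0.000336) and *Col14a1* (−0.82, adjusted p = 0.0316) were lower, and the others did not pass. *Dcn* ranged from 11.1 to 68.3 CPM in GFPiSMC and from 2.31 to 120 CPM in Tgfbr1/2iSMCKO libraries. Most of the fibroblast sum came from *Mfap5* (504 to 1228 and 335 to 457 CPM) and *Gsn* (170 to 642 and 172 to 1292 CPM). The median log2 fold change of the 9 was 0.24. The part of the fibroblast markers was not tested either. In bulk samples, fewer cells of a type and less RNA per cell cannot be told apart. *Tgfbr1* was at 235 ± 35.3 CPM (SD, n = 6 libraries) in GFPiSMC and 252 ± 33.0 CPM in Tgfbr1/2iSMCKO, and *Tgfbr2* at 106 ± 13.3 and 89.0 ± 12.5 CPM. Counts summed over a gene include exons outside the floxed part, so these values do not check the deletion.

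To set the chains of one library side by side, CPM was divided by the kilobases of merged exons of each gene. In the ascending/arch of GFPiSMC mice, *Col18a1* stood highest at 95.2 ± 2.00 CPM per kb (SD, n = 3), followed by *Col4a1* at 86.6 ± 10.4, *Col4a2* at 70.4 ± 3.29, *Col4a5* at 53.8 ± 2.71, *Col15a1* at 47.0 ± 5.78, and *Col4a6* at 27.7 ± 1.86 CPM per kb. The libraries of *Col18a1* and *Col4a1*, and those of *Col4a5* and *Col15a1*, overlapped, whereas the other neighbours in this order were separate. *Col4a3* at 3.04 ± 1.14 and *Col4a4* at 1.21 ± 0.54 CPM per kb were the lowest. Transcripts for the chains of the widespread and the smooth muscle trimers were thus far more abundant than those of *Col4a3* and *Col4a4*. The glomerular trimer cannot form without the chains that *Col4a3* and *Col4a4* encode. In the descending segment of GFPiSMC mice the order was *Col18a1* (112 ± 16.6), *Col4a2* (71.7 ± 2.64), *Col4a1* (53.8 ± 37.7), *Col4a5* (48.9 ± 2.72), *Col15a1* (27.8 ± 3.56), *Col4a6* (20.7 ± 1.15), *Col4a3* (1.92 ± 0.69), and *Col4a4* (1.04 ± 0.42 CPM per kb), with *Col4a1* overlapping both of its neighbours and *Col4a3* overlapping *Col4a4*.

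In Tgfbr1/2iSMCKO libraries, *Col15a1* went from the fifth rank to the lowest, at 0.478 ± 0.25 CPM per kb in the ascending/arch and 0.287 ± 0.21 CPM per kb in the descending segment, below every library of *Col4a4* (0.935 ± 0.26 and 0.595 ± 0.046 CPM per kb). *Col18a1* remained highest at 47.8 ± 0.88 and 46.0 ± 3.05 CPM per kb. *Col4a1* followed at 31.5 ± 5.83 and 30.2 ± 8.23, *Col4a2* at 22.9 ± 5.20 and 25.5 ± 3.69, and *Col4a5* at 20.4 ± 0.79 and 20.2 ± 3.67 CPM per kb. The libraries of *Col4a1* and *Col4a2*, and those of *Col4a2* and *Col4a5*, overlapped in both segments. The 8 genes together held 0.242% ± 0.032 of all counts in the 6 GFPiSMC libraries and 0.104% ± 0.0099 in the 6 Tgfbr1/2iSMCKO libraries, with no overlap (0.189% to 0.274% and 0.0893% to 0.115%). Of the counts of all listed collagen genes they held 36.3% ± 2.72 and 38.6% ± 3.73, and here the libraries overlapped.

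**Figure D1:**
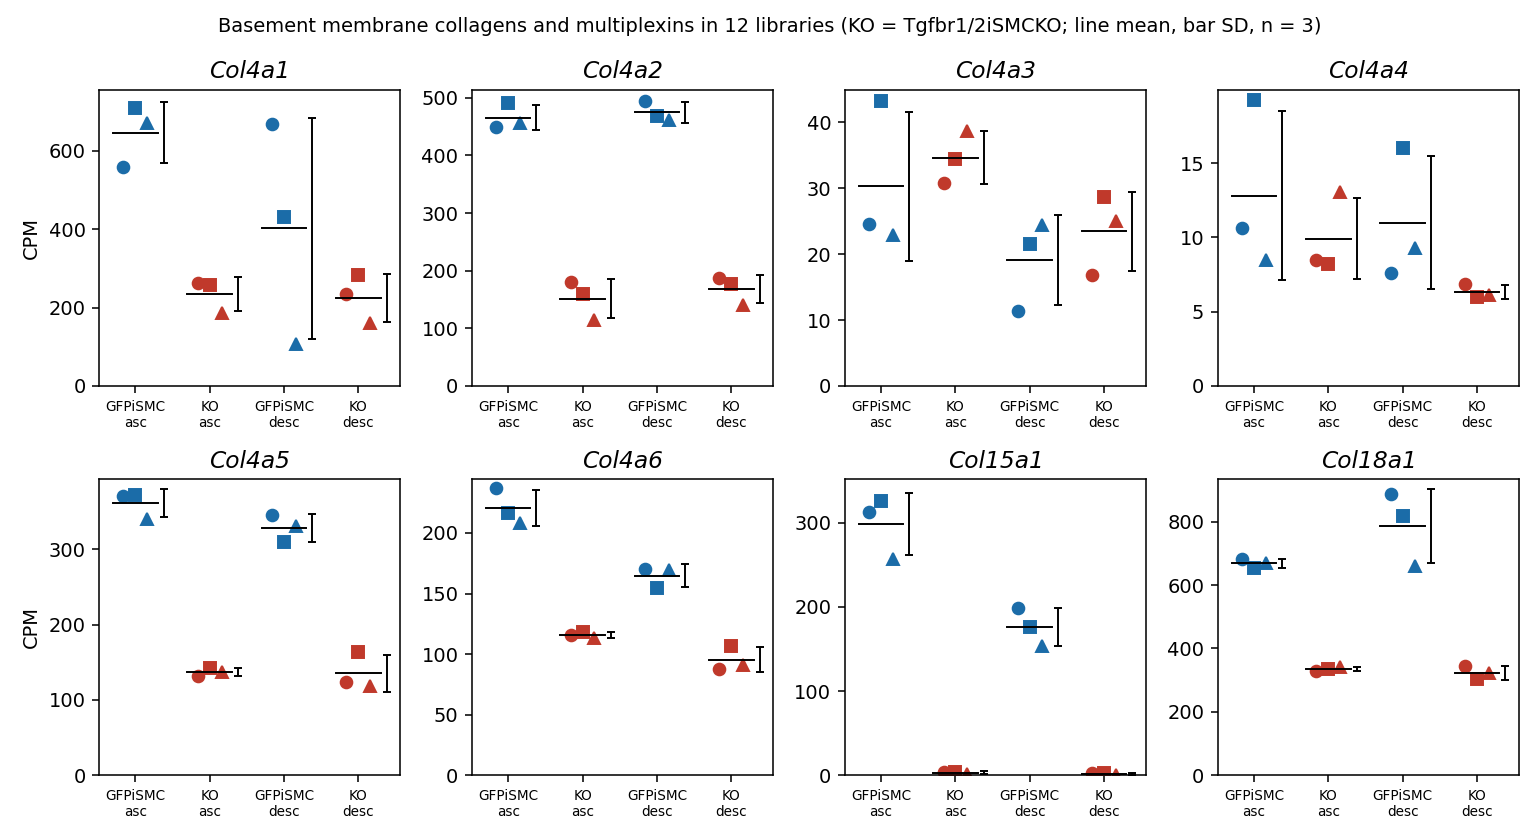
Each panel plots 1 gene in CPM (vertical axis, from 0) for the 12 libraries by genotype and segment (asc, ascending/arch; desc, descending), with circles, squares, and triangles for replicates 1, 2, and 3, a line for the mean, and a bar for the SD (n = 3). Blue GFPiSMC points lie above all red Tgfbr1/2iSMCKO (KO) points for *Col4a2*, *Col4a5*, *Col4a6*, *Col15a1*, and *Col18a1*, while 1 descending GFPiSMC library of *Col4a1* lies at 107 CPM.

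The comparison of genotypes asked which of these genes depend on TGF-β receptors in adult SMCs. With the segment as a covariate, *Col4a2*, *Col4a5*, *Col15a1*, and *Col18a1* fell by more than 2-fold with an adjusted p under 0.05 (edgeR quasi-likelihood test with Benjamini-Hochberg adjustment), *Col4a6* fell by less than 2-fold, and *Col4a1*, *Col4a3*, and *Col4a4* did not pass. None of the 8 was higher with an adjusted p under 0.05, and only *Col4a3* had an estimate above 0 (log2 fold change 0.25, SE 0.23). Thus 4 of 8 were lower by both criteria, where 1.64% of the 22320 genes tested were, and 5 of 8 were lower by the adjusted p alone, where 3.23% were. The median log2 fold change of the 8 genes was −1.14, against 0.04 for all genes tested. For 5 of 8, every Tgfbr1/2iSMCKO library lay below every GFPiSMC library, as in 2.89% of all genes. The libraries of an animal's 2 segments are not independent mice, and p values measure the spread between libraries. All of these are RNA levels. By microscopy a week after disruption, the paper reports that collagen IV did not appear decreased, whereas collagen XVIII was substantially lower.

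*Col15a1* encodes the multiplexin that links basement membranes to the surrounding fibrils in muscle and vessels. It was at 313, 326, and 257 CPM in the ascending/arch and at 199, 176, and 154 CPM in the descending segment of GFPiSMC replicates 1 to 3. In Tgfbr1/2iSMCKO replicates 1 to 3 it was at 3.88, 4.03, and 1.19 CPM in the ascending/arch and at 2.24, 2.89, and 0.337 CPM in the descending segment. All 6 libraries without the receptors were thus near the bottom of the detectable range, with 10 to 113 counts against 3831 to 9494 counts. The log2 fold change was −6.62 (SE 0.45, adjusted p = 1.22e-06), or 98.4-fold lower. By segment it was −6.63 (SE 0.66) in the ascending/arch and −6.61 (SE 0.66) in the descending aorta.

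*Col15a1* ends 40054 bases before the start of *Tgfbr1*, one of the floxed genes, on the same chromosome and strand. Of the 6 other protein-coding genes within 500 kb, *Sec61b*, a subunit of the channel through which secreted proteins enter the endoplasmic reticulum, fell from 182 ± 41.3 to 117 ± 17.1 CPM (n = 6 libraries; log2 fold change −0.63, SE 0.15, edgeR adjusted p = 0.0242). *Tgfbr1* itself (log2 fold change 0.10), *Alg2* (−0.32), *Anks6* (0.54), *Galnt12* (−0.82), and *Gabbr2* (−0.45) did not pass the adjusted p of 0.05. *Gm12426*, an antisense gene that overlaps the 5′ end of *Col15a1*, had 15 to 28 counts in GFPiSMC and 0 to 7 in Tgfbr1/2iSMCKO libraries (log2 fold change −3.06, SE 0.73, adjusted p = 0.0270). If the counting did not use strand, its reads of *Col15a1* cannot be told apart.

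*Col18a1* encodes the multiplexin from which endostatin is cut. In GFPiSMC replicates 1 to 3 it was at 682, 654, and 668 CPM in the ascending/arch and at 886, 817, and 659 CPM in the descending segment. In Tgfbr1/2iSMCKO replicates 1 to 3 it was at 329, 336, and 341 CPM and at 345, 302, and 323 CPM. The genotypes did not overlap, and the values without the receptors were close together. They were 2.20-fold lower (log2 fold change −1.14, SE 0.10, adjusted p = 7.8e-06). The level without the receptors was thus 0.454 of the control level by the edgeR estimate.

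*Col4a2* encodes the partner of the *Col4a1* chain. It was at 450, 490.5, and 457 CPM in the ascending/arch and at 494, 468, and 461 CPM in the descending segment of GFPiSMC mice. In Tgfbr1/2iSMCKO mice it was at 181, 159, and 114 CPM and at 188, 177, and 141 CPM. The 6 control libraries were close together (470 ± 18.3 CPM, SD), and the highest library without the receptors lay far below them. The log2 fold change was −1.56 (SE 0.12, adjusted p = 3.98e-06), the second largest of the 8 in size.

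*Col4a1* encodes the most widely used chain of type IV collagen. In the GFPiSMC ascending/arch it was at 559, 709, and 670 CPM and in the descending segment at 668, 430, and 107 CPM. Tgfbr1/2iSMCKO libraries were at 263, 258, and 185 CPM and at 234, 282, and 160 CPM. The descending library of GFPiSMC replicate 3 was thus below all libraries of the other genotype, and 4.02 times below the next lowest of its own. In that library *Col4a2* was at 461 CPM, within the range of the others. With all 12 libraries the log2 fold change of *Col4a1* was −1.15 (SE 0.33, adjusted p = 0.0657). Without that library, left out after the data were seen, it was −1.38 (SE 0.17, adjusted p = 0.000423).

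With counts summed per animal *Col4a1* came to −1.17 on the log2 scale (edgeR, adjusted p = 0.0360), and DESeq2 gave −1.14 (adjusted p = 0.0150). Over all 15 alternatives the adjusted p ranged from 0.000423 to 0.269 and was under 0.05 in 4. Gaps of this kind occurred in other genes too. Of 4676 genes that averaged 1000 counts or more, 4 to 18 per library, and 16 in this one, lay more than 3 times below the lowest other library of their genotype, whereas 0 to 3 per library lay more than 3 times above the highest. What set these values was not tested. Outside that library, all 5 GFPiSMC values of *Col4a1* (430 to 709 CPM) were above all 6 of Tgfbr1/2iSMCKO (160 to 282 CPM).

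*Col4a5*, on the X chromosome, encodes a chain of both minor trimers. In GFPiSMC replicates 1 to 3 it was at 371, 373, and 341 CPM in the ascending/arch and at 346, 309, and 331 CPM in the descending segment. In Tgfbr1/2iSMCKO libraries it was at 132, 142, and 137 CPM and at 124, 164, and 119 CPM. The segments overlapped within each genotype, and the genotypes did not overlap. Their log2 fold change was −1.34 (SE 0.10, adjusted p = 3.03e-06), or 2.53-fold lower.

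*Col4a6* encodes the partner of the *Col4a5* chain in smooth muscle. It was at 237, 217, and 208 CPM in the ascending/arch and at 170, 154, and 170 CPM in the descending segment of GFPiSMC mice. Without the receptors it was at 116, 118, and 113 CPM and at 88.0, 107, and 91.4 CPM. Every library without the receptors was lower than every control library. On the log2 scale the difference was −0.86 (SE 0.09, adjusted p = 7.28e-05), a fall of 44.9% that stayed under 2-fold.

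*Col4a3* and *Col4a4* encode chains best known from the kidney, the lung, and Alport syndrome. *Col4a3* was at 24.6, 43.3, and 23.0 CPM in the ascending/arch and at 11.4, 21.6, and 24.4 CPM in the descending segment of GFPiSMC mice. It was at 30.8, 34.5, and 38.7 CPM and at 16.8, 28.6, and 25.0 CPM in Tgfbr1/2iSMCKO mice. The genotypes overlapped, and the log2 fold change was 0.25 (SE 0.23, adjusted p = 0.712).

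*Col4a4* was at 10.6, 19.3, and 8.51 CPM in the GFPiSMC ascending/arch and at 7.63, 16.1, and 9.32 CPM in the GFPiSMC descending segment. Its Tgfbr1/2iSMCKO values were 8.51, 8.20, and 13.0 CPM and 6.87, 5.98, and 6.11 CPM. On the log2 scale the difference was −0.58 (SE 0.26, unadjusted p = 0.0411, adjusted p = 0.278). GFPiSMC replicate 2 was the highest of its genotype in both segments, and without that animal the log2 fold change was −0.19 (adjusted p = 0.839).

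**Figure D2:**
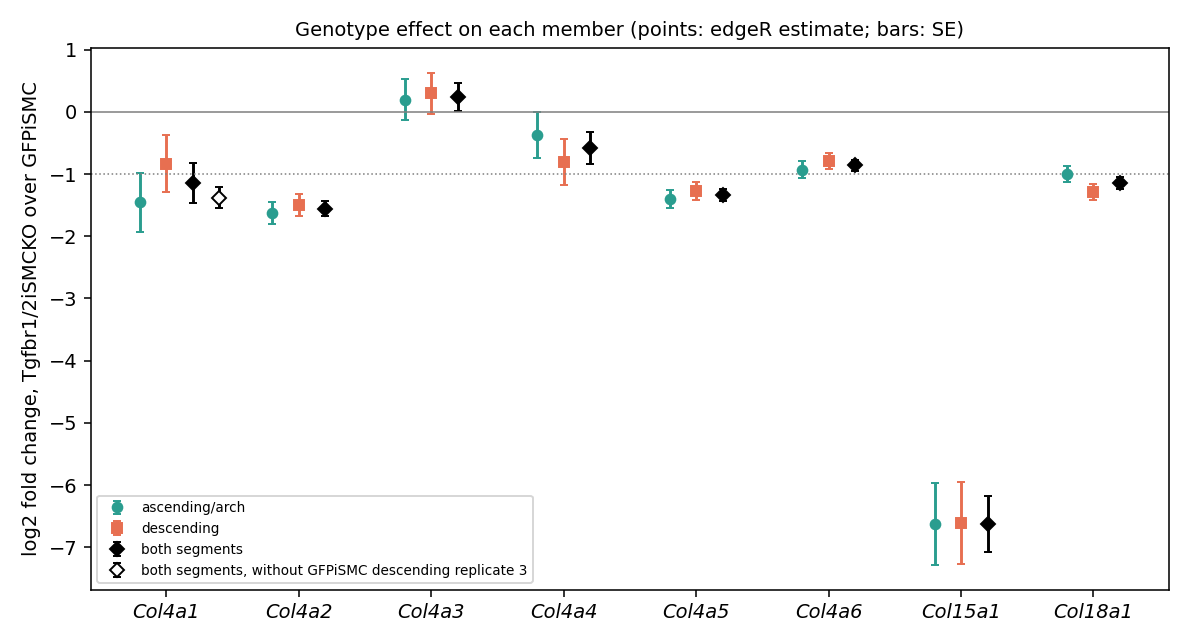
The vertical axis gives the log2 fold change of Tgfbr1/2iSMCKO over GFPiSMC for each gene, as the edgeR estimate with its SE, in the ascending/arch (circles), the descending segment (squares), and both (filled diamonds); the open diamond is *Col4a1* without the descending library of GFPiSMC replicate 3 and the dotted line marks a 2-fold fall. *Col15a1* lies near −6.6 in all 3 fits, while the other 7 genes lie between −1.62 and 0.30.

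Within the ascending/arch alone, 3 of 8 genes were lower by both criteria (*Col4a2*, *Col4a5*, and *Col15a1*), where 0.811% of all genes were. *Col18a1* (log2 fold change −0.995, SE 0.13, adjusted p = 0.00157) was just short of 2-fold there, and *Col4a6* (−0.93, SE 0.13, adjusted p = 0.00333) also passed the adjusted p alone. In the descending segment, 4 of 8 were lower by both criteria, against 0.995% of all genes, with *Col18a1* at −1.28 (SE 0.13, adjusted p = 0.000249). *Col4a6* (−0.79, SE 0.13, adjusted p = 0.00864) passed the adjusted p alone, but lost it when the descending libraries were fitted without the others (adjusted p = 0.121) and without GFPiSMC replicate 1 (0.0841), GFPiSMC replicate 3 (0.0597), or Tgfbr1/2iSMCKO replicate 1 (0.102). *Col4a1* came to −1.46 (SE 0.47, adjusted p = 0.202) in the ascending/arch, where the genotypes did not overlap, and of −0.83 (SE 0.46, adjusted p = 0.598) in the descending segment. Without the descending library of GFPiSMC replicate 3, these were −1.45 (adjusted p = 0.0109) and −1.29 (adjusted p = 0.0342).

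The difference between these effects was tested as an interaction. None of the 8 genes passed in edgeR, none had an unadjusted p under 0.05, and none passed in DESeq2. Of all genes, 0.00% passed in edgeR and 2.95% had an unadjusted p under 0.05. The difference, descending minus ascending/arch on the log2 scale, was −0.29 (SE 0.18) for *Col18a1*, 0.13 (SE 0.24) for *Col4a2*, 0.12 (SE 0.20) for *Col4a5*, 0.14 (SE 0.19) for *Col4a6*, and 0.02 (SE 0.83) for *Col15a1*. It was larger in size for *Col4a1* (0.62, SE 0.65) and *Col4a4* (−0.43, SE 0.52), and was 0.10 (SE 0.47) for *Col4a3*. The SE of *Col15a1* leaves room for a difference of severalfold between the segments.

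Between the segments of GFPiSMC mice, *Col15a1* and *Col4a6* had lower values in the descending aorta, and their libraries did not overlap. No gene of the 8 passed the adjusted p in edgeR or DESeq2, where 0.372% of all genes were changed by both criteria. The log2 fold change, descending over ascending/arch, was −0.76 (SE 0.51, adjusted p = 0.911) for *Col15a1* and −0.42 (SE 0.13, unadjusted p = 0.00773, adjusted p = 0.474) for *Col4a6*, the only one of the 8 with an unadjusted p under 0.05, which 5.98% of all genes had. With the animal as a block, *Col15a1* had an adjusted p of 0.242. Libraries that do not overlap were seen for 2 of 8 genes and for 13.0% of all genes. *Col18a1* (0.24, SE 0.13) and *Col4a2* (0.03, SE 0.17) had log2 fold changes above 0.

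Between the segments of Tgfbr1/2iSMCKO mice, none of the 8 passed the adjusted p in edgeR or DESeq2 and none had an unadjusted p under 0.05 in edgeR, where 0.108% of all genes were changed by both criteria and 3.68% had such a p. The log2 fold change was −0.28 (SE 0.13) for *Col4a6*, −0.56 (SE 0.33) for *Col4a3*, −0.65 (SE 0.37) for *Col4a4*, and −0.74 (SE 0.56) for *Col15a1*. The unadjusted p was 0.0473 for *Col4a6* in DESeq2 and 0.0309 for *Col4a3* in edgeR with the animal as a block. The descending libraries of *Col4a3*, *Col4a4*, and *Col4a6* lay below all ascending/arch libraries, so that 3 of 8 genes did not overlap, against 7.24% of all genes in either direction.

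Because trimers need their chains together, ratios of length-scaled counts were compared between animals, as the mean of both segments on the log2 scale. An exact two-sided permutation test over 3 against 3 animals cannot give a p below 0.1. *Col4a6* to *Col4a5* was 0.537, 0.490, and 0.514 in the GFPiSMC ascending/arch and 0.415, 0.420, and 0.433 in the descending segment, and 0.739, 0.701, and 0.695 and 0.599, 0.550, and 0.648 in Tgfbr1/2iSMCKO. All 6 ratios without the receptors exceeded all 6 control ratios, and in both genotypes the descending ratios were the lower ones. The ratio per animal was 0.466 in GFPiSMC and 0.652 in Tgfbr1/2iSMCKO, a log2 difference of 0.49 (exact p = 0.1).

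*Col4a1* to *Col4a2* was 1.10, 1.28, and 1.301 in the GFPiSMC ascending/arch and 1.20, 0.815, and 0.206 in the descending segment. In Tgfbr1/2iSMCKO it was 1.28, 1.44, and 1.44 and 1.11, 1.41, and 1.01. The ratio per animal was 0.847 and 1.27 (log2 difference 0.58, exact p = 0.1), but without the descending library of GFPiSMC replicate 3 it was 1.15 and 1.27 (log2 difference 0.14, exact p = 0.4). *Col4a5* to *Col4a2* was 0.722 and 0.846 per animal (log2 difference 0.23, exact p = 0.4), with overlapping libraries. *Col4a5* to *Col4a1* was 0.852 and 0.666 (log2 difference −0.35, exact p = 0.5) and 0.631 and 0.666 without that library (exact p = 0.8).

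*Col4a4* to *Col4a3* was 0.459 in GFPiSMC and 0.261 in Tgfbr1/2iSMCKO animals (log2 difference −0.81, exact p = 0.1). In the ascending/arch, the 3 control ratios (0.348 to 0.418) were above the 3 others (0.223 to 0.316), and in the descending segment they overlapped (0.359 to 0.698 and 0.196 to 0.384). *Col15a1* to *Col18a1* was 0.349 per animal in GFPiSMC and 0.00623 in Tgfbr1/2iSMCKO (log2 difference −5.81, exact p = 0.1), 56.0-fold apart. This was 32.6-fold without Tgfbr1/2iSMCKO replicate 3 and 55.0-fold to 77.3-fold when each other animal was left out in turn. In the controls this ratio was 0.507, 0.551, and 0.425 in the ascending/arch and 0.248, 0.238, and 0.258 in the descending segment. In all, 6 ratios were compared, some of which share a gene, and the Benjamini-Hochberg adjusted p over the 6 was 0.15 for the 4 with an exact p of 0.1. The ratios *Col4a5* to *Col4a2*, *Col4a6* to *Col4a5*, and *Col4a4* to *Col4a3* were added after the data were seen.

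**Figure D3:**
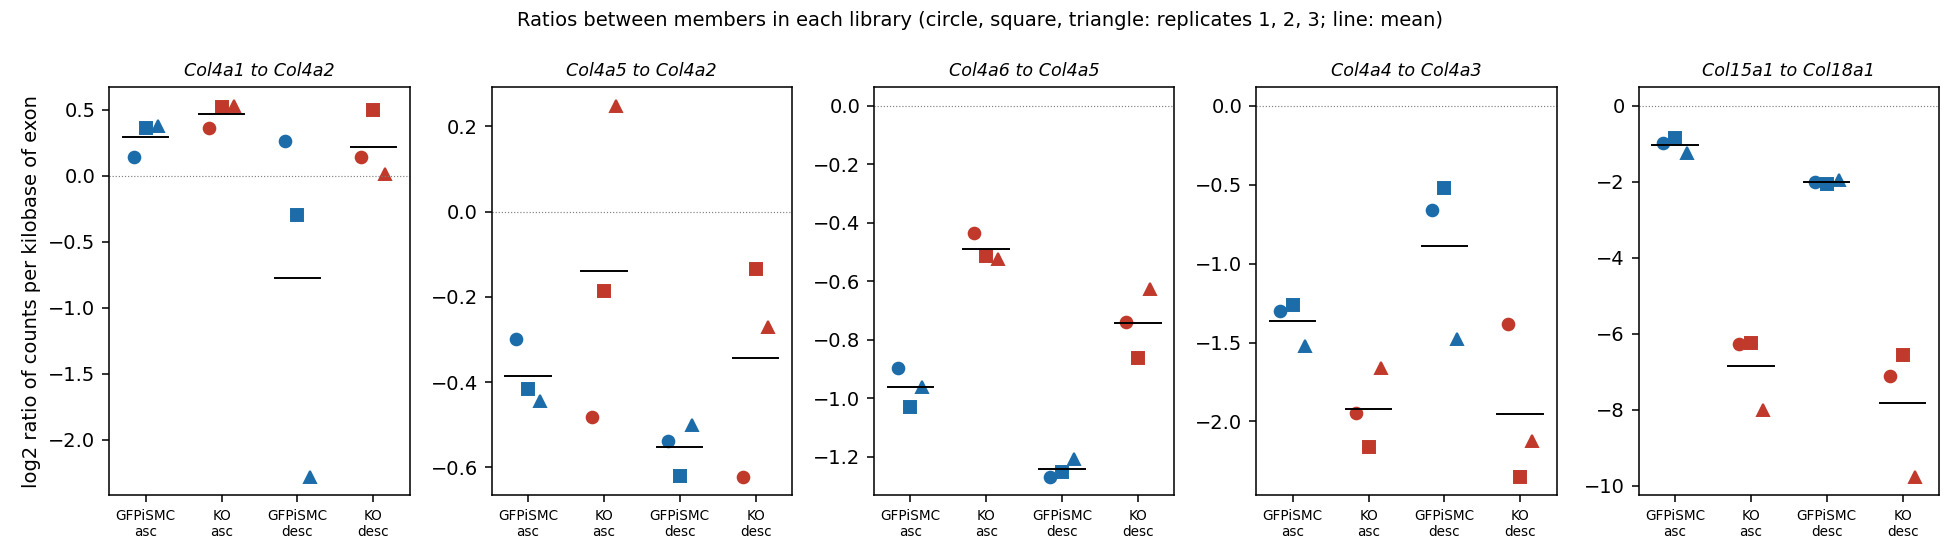
Each panel plots the log2 ratio of counts per kilobase of exon between a pair of genes in the 12 libraries, with circles, squares, and triangles for replicates 1, 2, and 3 and a line for the mean of 3 (KO, Tgfbr1/2iSMCKO; asc, ascending/arch; desc, descending). *Col4a6* to *Col4a5* is higher and *Col15a1* to *Col18a1* lower in every KO library, and 1 control library stands apart at 0.206 (log2 −2.28) for *Col4a1* to *Col4a2*.

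The levels of the genes also varied within groups. After the group means were taken out, log2 CPM of *Col4a5* and *Col4a6* had a Pearson correlation of 0.87 over the 12 libraries, that of *Col4a2* and *Col15a1* 0.85, that of *Col4a1* and *Col18a1* 0.77, and that of *Col4a3* and *Col4a4* 0.63. The lowest values were −0.69 for *Col4a3* and *Col18a1* and −0.47 for *Col4a1* and *Col4a3*. The remaining head-to-head pair, *Col4a1* and *Col4a2*, had 0.39. These are descriptions of 12 libraries that share depth and animals, and the value for *Col4a1* includes the library in which it stands apart. The value for *Col4a2* and *Col15a1* includes Tgfbr1/2iSMCKO replicate 3, in which both genes were lowest of their groups. There *Col15a1* had 37 and 10 counts and *Col4a2* 114 and 141 CPM, in the ascending/arch and the descending segment.

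By likeness over the 12 libraries, the pattern of *Col15a1* in log2 CPM was closest to those of *Nupr1* (Pearson r = 0.992), *Plod2* (0.988), and *Pxdc1* (0.984) among 11150 genes that averaged 100 counts or more. *Nupr1*, a stress-induced transcriptional regulator, went from 1617 to 95.0 CPM, and *Plod2* encodes a lysyl hydroxylase. Closest to *Col4a2* were *Pxdc1* (0.987), *Ramp1* (0.984), and *Ptprz1* (0.983), and closest to *Col18a1* were *Marveld1* (0.990), *Pkdcc* (0.988), and *Wtip* (0.985). *Col4a5* was closest to *Pcna-ps2* (0.995), a pseudogene whose counts may be shared with its parent gene, to *Ext1* (0.993), which encodes a heparan sulphate polymerase, and to *Nox4* (0.987), which encodes an NADPH oxidase.

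The likeness was weaker for *Col4a1*, *Col4a3*, and *Col4a4*. *Col4a1* was closest to *Rras2* (0.874), *Ryr2* (0.869), and *Uchl1* (0.843), *Col4a3* to *Glce* (0.885), *Pdzrn4* (0.850), and *Itga4* (0.846), and *Col4a4* to *Osbpl11* (0.917), *Epha1* (0.881), and *Lin37* (0.858). For *Col4a2*, *Col4a5*, *Col15a1*, and *Col18a1*, these correlations are carried by the gap between genotypes, which the 12 points share.

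The other basement membrane genes were taken by list. Of 11 laminin chains, which form the second network of the basement membrane, none passed the adjusted p in edgeR (3 had an unadjusted p under 0.05, against 16.1% of all genes), and their median log2 fold change was −0.24. With counts summed per animal, *Lamc3* (−1.06, adjusted p = 0.367 over libraries), named after its values were seen, passed both criteria (−1.55, adjusted p = 0.0312). *Lama4*, the laminin chain of the vessel wall, was at 193 ± 30.4 and 154 ± 17.4 CPM (n = 6; −0.32, SE 0.12, adjusted p = 0.196), *Lamc1* at 180 ± 46.0 and 111 ± 41.3 CPM (−0.70, SE 0.26, adjusted p = 0.174), and *Lamb2* (−0.17) and *Lama5* (−0.24) were closer to 0. Among 4 nidogens and heparan sulphate proteoglycans, which tie both networks together, *Nid1* fell from 33.5 ± 7.19 to 15.6 ± 3.85 CPM (−1.10, SE 0.16, adjusted p = 0.000825) and *Agrn* from 53.6 ± 4.86 to 26.9 ± 3.33 CPM (−0.997, SE 0.13, adjusted p = 0.00038). *Nid2* (−0.54) and *Hspg2* (−0.35), which encodes perlecan, did not pass. The fall of *Nid1* was under 2-fold when libraries were scaled by size alone (−0.97).

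Of 11 other components, 2 were lower by both criteria. *Npnt*, the nephronectin ligand of integrin α8, went from 706 ± 187 to 338 ± 98.9 CPM (−1.06, SE 0.21, adjusted p = 0.00770) and *Smoc2* from 10.6 ± 2.49 to 2.93 ± 1.80 CPM (−1.97, SE 0.48, adjusted p = 0.0281). *Npnt* was under 2-fold without the descending library of GFPiSMC replicate 3 (−0.95). *Smoc1* (−0.14), *Tinagl1* (0.27), and *Fbln1* (−1.83, SE 0.52, adjusted p = 0.0628) did not pass in the main edgeR fit. For *Fbln1* the outcome depended on the method. It met both criteria in DESeq2 (−1.78, adjusted p = 0.00547). The same held in edgeR once the libraries of each animal were added together (−2.35, adjusted p = 0.0410). It missed the adjusted p in edgeR when scaled by library size alone (−1.71, 0.0783). Leaving out the descending library of GFPiSMC replicate 3 also gave a miss (−2.02, 0.0513).

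Of 19 genes listed for the hydroxylation, folding, export, or crosslinking of collagen, 4 were lower by both criteria and 6 by the adjusted p alone, and none was higher. *Sparc*, a matricellular protein that binds type IV collagen, fell from 3401 ± 640 to 851 ± 125 CPM (−1.998, SE 0.13, adjusted p = 1.05e-06). The lysyl hydroxylase *Plod2* fell from 177 ± 35.7 to 48.1 ± 9.83 CPM (−1.88, SE 0.16, adjusted p = 7.32e-06). *P3h2*, the prolyl 3-hydroxylase that acts on basement membrane collagen, fell from 63.0 ± 18.9 to 19.1 ± 6.42 CPM (−1.71, SE 0.15, adjusted p = 1.15e-05), and *P4ha1*, a catalytic subunit of prolyl 4-hydroxylase, from 170 ± 39.2 to 71.0 ± 22.5 CPM (−1.26, SE 0.22, adjusted p = 0.00359). *P4ha1* missed the adjusted p with counts summed per animal (0.0550). The collagen chaperone *Serpinh1* (−0.67, SE 0.38, adjusted p = 0.439) and *P4hb* (−0.40, adjusted p = 0.537) did not pass, and *Ppib* fell by less than 2-fold (−0.57, SE 0.09, adjusted p = 0.00185).

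Of 12 receptors for basement membrane collagens and laminins, none was past both criteria. *Itgb1*, the β subunit shared by these integrins, fell from 2038 ± 115 to 1465 ± 122 CPM (−0.48, SE 0.07, adjusted p = 0.00150), and *Itga1*, which pairs with it in the receptor for type IV collagen, was at 438 ± 36.5 and 363 ± 25.9 CPM (−0.27, SE 0.08, adjusted p = 0.0733). *Itgb1* missed the adjusted p in edgeR with counts summed per animal (0.0516). *Ddr2* (0.31) and *Dag1* (−0.31) did not pass. Of 8 proteinase and inhibitor genes tested, *Ctsl*, the cathepsin that can release endostatin, fell from 180 ± 19.1 to 74.25 ± 9.54 CPM (−1.28, SE 0.11, adjusted p = 1.51e-05), while *Timp3* (−0.09), *Ctsb* (−0.15), and *Bmp1* (−0.58) did not pass.

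For comparison, 4 of 10 fibrillar collagen genes tested were lower by both criteria, with a list median of −0.71. *Col3a1* (−2.32, SE 0.08), *Col5a2* (−1.88, SE 0.09), *Col1a2* (−1.72, SE 0.08), and *Col1a1* (−1.45, SE 0.18) were these, with adjusted p from 1.5e-09 to 0.000289. Of 21 other collagen genes tested, 1 was lower by both criteria (*Col8a1*, from 5.00 ± 1.91 to 1.20 ± 0.53 CPM, −2.003, SE 0.37, adjusted p = 0.00507), and *Col6a1* (−0.55), *Col6a2* (−0.80), *Col6a3* (−0.70), and *Col14a1* (−0.82) passed the adjusted p alone. In edgeR with counts summed per animal, *Col6a3* kept the adjusted p (0.0242), while *Col6a1* (0.119), *Col6a2* (0.0886), and *Col14a1* (0.185) missed it. The median of the list of other collagens was −0.13. All shares are to be read against the 1.64% of genes tested that were lower by both criteria.

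**Figure D4:**
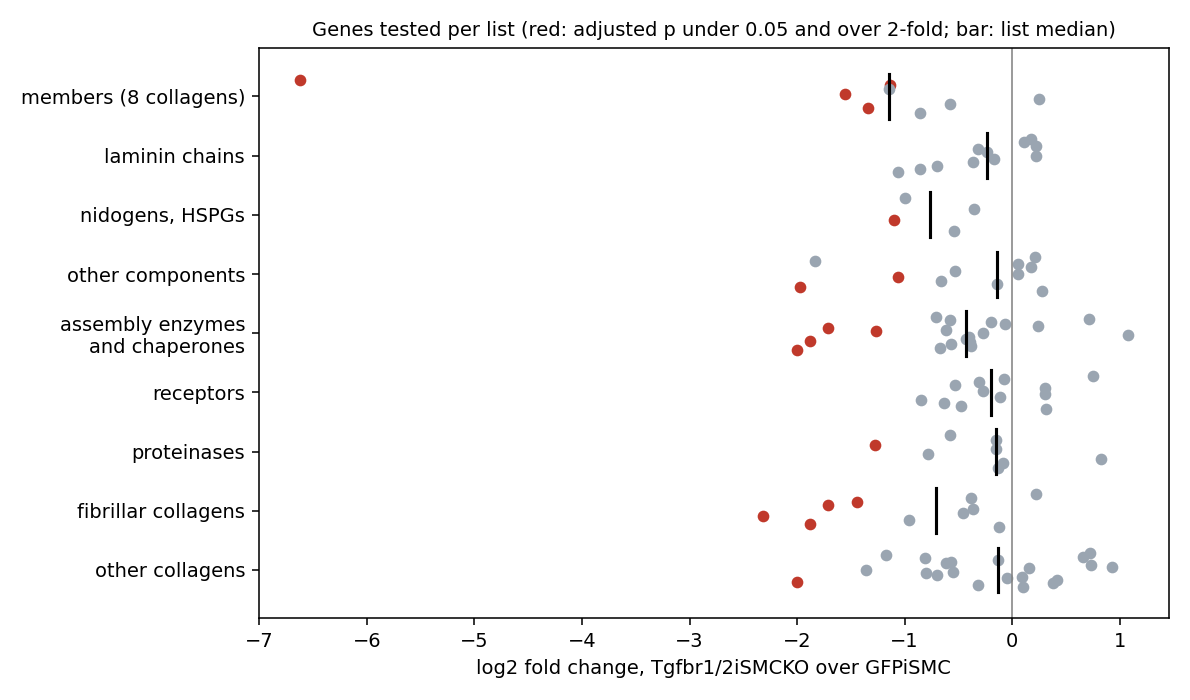
Each point is the log2 fold change of Tgfbr1/2iSMCKO over GFPiSMC (horizontal axis, edgeR, both segments) of 1 tested gene, grouped by list (vertical axis; HSPGs, heparan sulphate proteoglycans), with red for genes past both criteria and a black bar at the list median. The medians lie at −1.14 for the 8 genes, −0.77 for nidogens and proteoglycans, −0.43 for the assembly genes, and −0.71 for fibrillar collagens. They are closer to the zero line for laminins (−0.24), other components (−0.14), receptors (−0.19), proteinases (−0.15), and other collagens (−0.13). Every red point lies below −1.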

How the data were processed

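Per the labels and the methods of the study, reads were aligned with HISAT2 to GRCm38 (mm10) and quantified against GENCODE M15 with StringTie, and DESeq2 was used for comparisons. How the counts were derived from StringTie is not given in the sources used here. The deposited values are whole-number counts per gene for 12 libraries made by the authors without normalization. The kit (NEBNext Single Cell/Low Input) is not described as marking strand. Symbols and coordinates came from GENCODE M21 on the same build (52489 of 52636 genes matched).

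Counts were analysed with edgeR 4.0.16 in R 4.3.3 (filterByExpr on the 4 groups, TMM factors, quasi-likelihood fit), with segment and genotype for the comparison of genotypes and with 4 group means for the others. Both criteria were an adjusted p under 0.05 and more than a 2-fold difference. CPM uses TMM-scaled library sizes, and log2 CPM a prior count of 2. The common biological coefficient of variation was 0.442, which with total counts of 20467027 or more sets the precision. Alternatives used DESeq2 1.42.0, limma 3.58.1, other scaling and filters, counts summed per animal, blocks, and each animal left out. The steps were tested on simulated counts. Figures were drawn with matplotlib 3.10.9. Libraries of 1 genotype with the same number were taken as segments of 1 animal.

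The genes and the lists were chosen with earlier results of these data known. Genes named were the 8, *Tgfbr1* and *Tgfbr2*, list genes past both criteria and up to 4 per list with the highest CPM, protein-coding genes within 500 kb of *Col15a1*, and the 3 genes most alike each of the 8. Those most alike *Col4a6* are not reported here. *Gm12426* was added after its values were seen.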

Additional observations from a re-analysis of the deposited data

How the results depend on the processing

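Every alternative left 4 or 5 of the 8 genes lower by both criteria between genotypes, *Col4a1* being the one gained. Leaving out each animal gave 4 to 5 genes for both segments, 3 to 4 for the ascending/arch, with *Col18a1* or *Col4a1* gained, and 4 for the descending segment, and 7 to 11 genes over the 6 basement membrane lists. A block for the replicate number gave 4 genes between genotypes, and with the animal as a block 0 genes between segments. It changed no call. Same-numbered libraries of the genotypes had deviations from their group means that correlated between −0.46 and 0.17 over 11150 genes. For the segments of an animal the range was −0.18 to 0.60. These ranges overlap, so the correlations cannot tell whether the number pairs libraries of the genotypes. Scaling by library size moved the median log2 fold change of all genes from 0.04 to 0.16 and the share of lower genes among those past both criteria from 61.4% (366 of 596) to 48.0% (296 of 617), and kept 4 of the 8 genes. The ratio of *Col4a5* to *Col4a1* changed sign without the descending library of GFPiSMC replicate 3 (0.079) and in the ascending/arch alone (0.069), and ranged from −0.55 to −0.0013 over the animals left out. Estimates near 0 changed sign without a call: the difference between segments for *Col15a1* under the block (−0.051), without that library (−0.081), and over the animals left out (−0.25 to 0.13), for *Col4a3* (−0.15 to 0.47) and *Col4a5* (−0.013 to 0.20) over the animals left out, the segment effect in GFPiSMC for *Col4a2* by library size (−0.0062) and over the animals left out (−0.011 to 0.075), that in Tgfbr1/2iSMCKO for *Col4a5* by library size (0.0016) and over the animals left out (−0.15 to 0.065), and the ascending/arch effect of *Col4a4* over the animals left out (−0.62 to 0.055). With 3 animals a group, depth does not limit the abundant genes, while *Col15a1* without the receptors rests on 10 to 113 counts.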
